A study of Mus musculus with 38 samples.

Results

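Collagen chains are modified and folded in the endoplasmic reticulum (ER) before they are secreted, and 9 genes of this step and of 2 further ER chaperones were followed here out of 23481 genes in the bulk table. They were taken by name from every bulk library, every SCRB-seq cell and every SMART-seq2 cell, with Col4a1, a chain of the basement membrane collagen type IV, and Lama1, the laminin α1 chain, as references for timing. E14 mouse embryonic stem cells (mESCs), a feeder-free line kept pluripotent in 2i/L medium (a MEK inhibitor, a GSK3 inhibitor and LIF), were moved to N2B27 medium with 0.25 µM all-trans retinoic acid (RA) and sampled for up to 96 h. The bulk samples were 2 mESC libraries, 1 library of the whole culture at each of 6, 12, 24, 36, 48, 60, 72, 84 and 96 h, and libraries of cells sorted by the surface proteins CD24 and PDGFRA. At 96 h, ectoderm-like cells (positive for CD24 and negative for PDGFRA, per the study's methods) and XEN-like cells (the opposite pattern, named after extraembryonic endoderm) were sorted in 2 libraries each. At 48 h, PDGFRA- cells were split into the CD24 gates Q1 to Q4, and at 72 h into T1 to T3, beside a PDGFRA+ CD24- gate, with 1 library per gate. The sorted cells were also cultured further with EGF and FGF2, the ectoderm-like cells to passage 5 on coated dishes and the XEN-like cells for 3 weeks as floating aggregates, with 1 library of each. Single cells were measured by SCRB-seq at 9 time points and by SMART-seq2 at 0, 12, 24 and 48 h, with 1 sample per time point.

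Collagen chains assemble into a triple helix only after many of their prolines carry a hydroxyl group. Prolyl 4-hydroxylase is a tetramer of catalytic α subunits, encoded by P4ha1 or P4ha2, and of the β subunit encoded by P4hb, which is also protein disulfide isomerase and serves many other secreted proteins. Plod1, Plod2 and Plod3 encode lysyl hydroxylases, which prepare collagen lysines for crosslinking and, for the Plod3 product, for the addition of sugars. Serpinh1 encodes HSP47, a chaperone that binds the folded collagen helix. Erp29 encodes an ER protein of the disulfide isomerase family without the redox activity, and Lrpap1 encodes RAP, which escorts receptors of the LDL receptor family through the ER. Extraembryonic endoderm is known for the secretion of basement membrane collagen and laminin.

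The 4 members Serpinh1, P4ha1, P4ha2 and P4hb are shown by the 250 bases upstream of their start. They were chosen because theirs were the member windows with the pentamer CCACG, the second part of the ER stress response element. The sequences are those of RefSeq on GRCm38.p6, in which 7 of the 9 members had an entry (not Plod2 and Erp29). The Serpinh1 window lies on the minus strand of chromosome 7 (chr7:99353240-99353489), that of P4ha1 on the plus strand of chromosome 10 (chr10:59323046-59323295), that of P4ha2 on the plus strand of chromosome 11 (chr11:54100674-54100923) and that of P4hb on the minus strand of chromosome 11 (chr11:120573254-120573503). The windows end at the base before the first annotated base of Serpinh1, P4ha1 and P4hb in GENCODE M21, while an annotated P4ha2 transcript starts upstream of the P4ha2 window, at base 54100095. Each is written 5′ to 3′ along its gene, and capitals mark CCACG or CCAAT on either strand, so that CGTGG and ATTGG are the same motifs read on the opposite strand.
Serpinh1: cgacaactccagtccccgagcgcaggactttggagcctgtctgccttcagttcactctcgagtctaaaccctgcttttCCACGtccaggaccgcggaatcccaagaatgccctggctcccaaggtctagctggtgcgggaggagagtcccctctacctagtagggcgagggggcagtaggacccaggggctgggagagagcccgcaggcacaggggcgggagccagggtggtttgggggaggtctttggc
P4ha1: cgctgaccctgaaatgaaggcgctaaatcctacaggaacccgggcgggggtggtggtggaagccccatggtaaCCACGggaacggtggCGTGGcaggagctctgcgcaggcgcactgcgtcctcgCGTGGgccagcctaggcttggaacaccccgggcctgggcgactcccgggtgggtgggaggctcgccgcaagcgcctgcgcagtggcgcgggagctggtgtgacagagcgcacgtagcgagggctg
P4ha2: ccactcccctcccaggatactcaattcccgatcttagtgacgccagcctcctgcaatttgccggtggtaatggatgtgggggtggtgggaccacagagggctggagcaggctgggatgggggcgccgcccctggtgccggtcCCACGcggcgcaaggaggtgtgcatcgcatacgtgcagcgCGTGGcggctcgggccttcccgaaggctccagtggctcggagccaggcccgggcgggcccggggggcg
P4hb: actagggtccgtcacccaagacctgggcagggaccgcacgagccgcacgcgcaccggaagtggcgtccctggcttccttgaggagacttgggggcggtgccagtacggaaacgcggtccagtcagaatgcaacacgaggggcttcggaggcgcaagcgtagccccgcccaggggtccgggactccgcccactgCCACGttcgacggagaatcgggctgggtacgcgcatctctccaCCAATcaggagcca
CCACG was present in 4 of the 7 member windows and in 28.2% of the windows of 27025 genes. It lay 172 bases before the start in Serpinh1, 57 in P4hb, 108 and 68 in P4ha2, and 177, 162 and 125 in P4ha1, counted to its farthest base. The 5-base motif ACGTG, which shares bases with CCACG in Serpinh1 and P4hb, was in 5 member windows, those 4 and Plod3, and in 16.6% of all windows. The GC box GGGCGG was in 6 member windows, all but Plod3, and in 32.9% of all. CCAAT was in 2 member windows, P4hb and Plod3, and in 34.5% of all windows. The full ER stress response element, found in 0.122% of all windows, the heat shock core GAANNTTC, found in 6.78%, and AGGTCA, found in 13.8%, were in no member window. These are matches of letters in a short window and no measure of binding.

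The bulk libraries held 1063830 to 2459483 UMIs (molecules counted once by a random tag), and levels are given as UMIs relative to the library total (CPM). The labels do not say whether libraries with the same name came from separate cultures, while the study's methods describe biological replicates of mESCs and of both sorted types. The p-values measure the spread between these samples, with 2 libraries per group. Conditions with 1 library have no replicate check and no test, and their intervals cover counting error only. In bulk samples, fewer cells of a type and less RNA per cell cannot be told apart. Over 11 XEN marker genes the summed level was 197 to 281 CPM in mESCs, 6664 and 12049 CPM in the sorted XEN-like libraries, and 485 and 1779 CPM in the sorted ectoderm-like libraries, all 11 of them detected in each sorted library. The second ectoderm-like library thus carried more XEN marker RNA than the first, and also more RNA of 4 muscle markers, 424 against 76.7 CPM. The sorted XEN-like libraries also held 4524 and 6267 CPM of 12 pluripotency markers, more than the 2777 CPM of the whole culture at 96 h.

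All 9 members were higher in sorted XEN-like cells than in mESCs, 4.96 on the log2 scale for the collagen chaperone Serpinh1 and 6.27 for the prolyl hydroxylase subunit P4ha2. Of 8947 genes tested with edgeR (quasi-likelihood test, call at an adjusted p below 0.05), 22.8% differed in this comparison and 12.3% were higher, and the median log2 difference was 3.51 for the members and -0.06 for all genes. The members and the partner lists were chosen with earlier results of these data known. Their counts and medians beside all genes, here and below, are therefore a description and no independent support. Serpinh1 was at 13.1 and 29.6 CPM in the 2 mESC libraries, at 81.7 and 165 CPM in sorted ectoderm-like cells and at 925 and 640 CPM in sorted XEN-like cells. Both XEN-like libraries were above those of the other groups. The difference between XEN-like cells and mESCs had an SE of 0.48 on the log2 scale and an adjusted p of 6.67e-05 by edgeR.

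The prolyl 4-hydroxylase subunits rose in XEN-like cells by unequal amounts. P4ha2 was at 2.19 and 6.96 CPM in mESCs, at 23.9 and 54.9 CPM in ectoderm-like cells, and at 412 and 415 CPM in XEN-like cells. P4ha1, the other catalytic subunit, was at 8.75 and 17.4 CPM in mESCs, at 18.3 and 54.9 CPM in ectoderm-like cells, and at 262 and 258 CPM in XEN-like cells. For both catalytic subunits the XEN-like libraries were above those of the other groups, and the 2 XEN-like libraries differed by less than their counting error. For P4ha1 the second mESC library (95% counting interval 12.4 to 23.7 CPM) and the first ectoderm-like library (12.6 to 25.8 CPM) were not apart by more than counting error. P4hb, the shared β subunit, started from a higher level, at 137 and 133 CPM in mESCs, and was at 193 and 233 CPM in ectoderm-like cells and at 961 and 613 CPM in XEN-like cells. Against mESCs the log2 differences in XEN-like cells were 6.27 (SE 0.55, adjusted p = 3.75e-05) for P4ha2, 4.10 (SE 0.52, adjusted p = 0.000251) for P4ha1 and 2.32 (SE 0.27, adjusted p = 0.000181) for P4hb, by edgeR.

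The 3 lysyl hydroxylases were higher in XEN-like cells as well, and Plod2 changed the most of them. Plod2 was at 14 and 15.7 CPM in mESCs, at 23.3 and 94.3 CPM in ectoderm-like cells, and at 314 and 362 CPM in XEN-like cells. Its 2 ectoderm-like libraries were far apart, the second being the one with more XEN and muscle marker RNA, whose part in the result was not tested. Plod3 was at 11.8 and 14.4 CPM, 15.0 and 29.1 CPM, and 90.9 and 60.2 CPM in the same order. Its XEN-like libraries were above those of the other groups, while the first ectoderm-like library lay within the counting interval of the second mESC library (9.89 to 20.2 CPM). Plod1 was the least abundant member by CPM, at 1.75 and 3.92 CPM in mESCs, 7.23 and 9.05 CPM in ectoderm-like cells, and 18.8 and 9.11 CPM in XEN-like cells. The second XEN-like library was thus level with the ectoderm-like libraries for Plod1. The log2 differences between XEN-like cells and mESCs were 4.31 (SE 0.56, adjusted p = 0.000309) for Plod2, 2.31 (SE 0.39, adjusted p = 0.00163) for Plod3 and 2.09 (SE 0.56, adjusted p = 0.0196) for Plod1 by edgeR. The call of Plod1 was lost without the first XEN-like library (1.60, adjusted p = 0.217), without the first mESC library (1.59, adjusted p = 0.107) and with DESeq2 (2.10, adjusted p = 0.119).

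The 2 chaperones that are not specific to collagen were higher in XEN-like cells too. Erp29 was at 56.9 and 50.9 CPM in mESCs, 91.1 and 100.1 CPM in ectoderm-like cells, and 650 and 420 CPM in XEN-like cells. Lrpap1 was at 131 and 120 CPM in mESCs, 77.3 and 209 CPM in ectoderm-like cells, and 2298 and 1065 CPM in XEN-like cells. For Lrpap1 the ectoderm-like libraries lay on both sides of the mESC libraries, and the XEN-like libraries were above all the others. In XEN-like cells against mESCs the log2 difference was 3.09 (SE 0.28, adjusted p = 4.55e-05) for Erp29 and 3.51 (SE 0.47, adjusted p = 0.000350) for Lrpap1 by edgeR. The deposited table names genes only, and the longest annotated Erp29 transcript overlaps Naa25 on the opposite strand. Whether the counting used strand is not given in the sources used here.

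**Figure D1:**
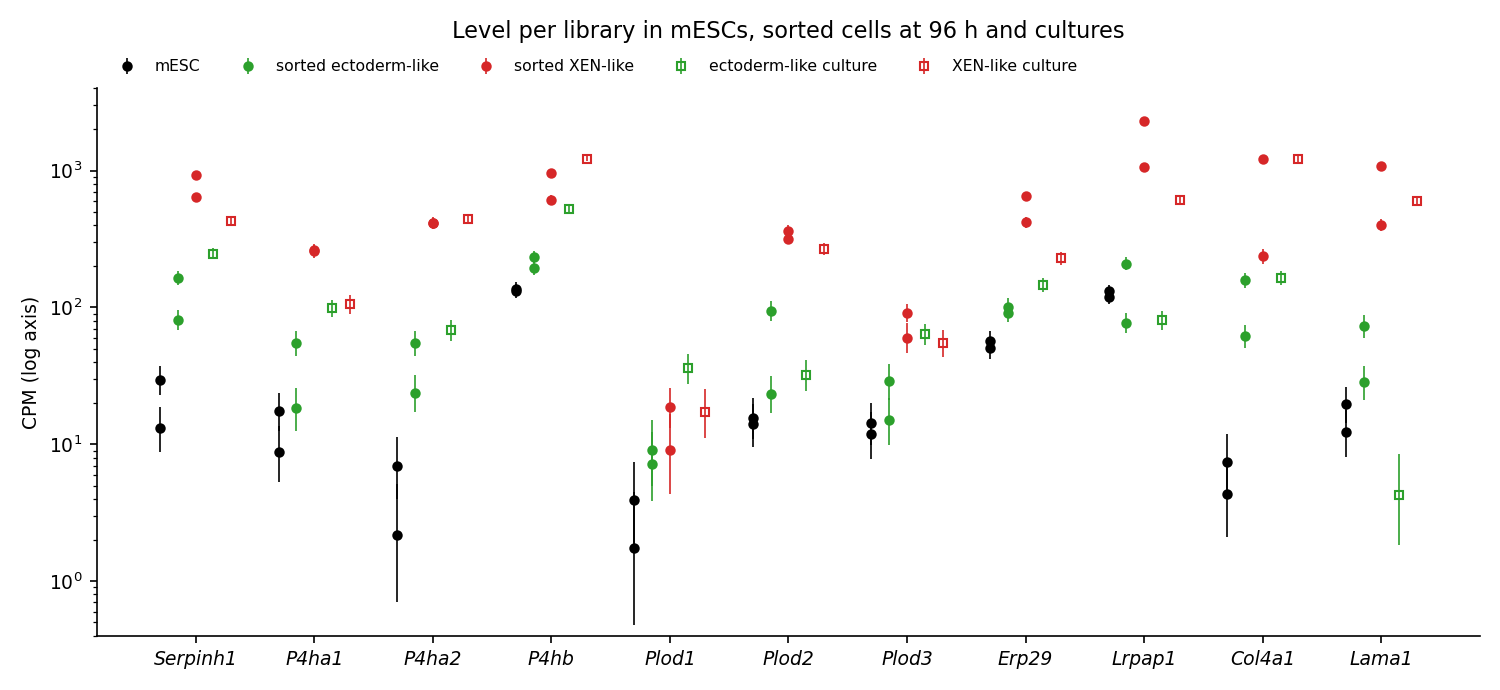
Level of each member, with Col4a1 and Lama1, in CPM on a log axis in the mESC, sorted and cultured libraries, 1 point per library. For Serpinh1, P4ha1 and P4ha2 both sorted XEN-like libraries lie above the mESC and sorted ectoderm-like libraries, while for Plod1 the ectoderm-like culture, at 35.9 CPM, lies above every other library.

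Between sorted ectoderm-like cells and mESCs, 3 of the 9 members were higher, against 9.85% of all genes tested, and the median log2 difference was 1.17 for the members and 0.05 for all genes. These were P4ha2 (2.77, SE 0.54, adjusted p = 0.00403), Serpinh1 (2.21, SE 0.44, adjusted p = 0.00465) and Plod2 (1.68, SE 0.54, adjusted p = 0.0499) in the edgeR fit. Without the second ectoderm-like library Serpinh1 (1.56, adjusted p = 0.0607) and Plod2 (0.28, adjusted p = 0.70) lost the call, and 1 member, P4ha2, was called. Plod2 was also not called without either mESC library (1.56, adjusted p = 0.128, and 1.79, adjusted p = 0.0893). The uncalled members had log2 differences of 1.18 for Plod1, 1.17 for P4ha1, 0.52 for Erp29, 0.44 for Plod3, 0.35 for P4hb and -0.10 for Lrpap1, with adjusted p from 0.136 to 0.909 by edgeR. The difference of Lrpap1 was positive with library totals as the only scaling (0.19) or without the first ectoderm-like library (0.51).

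The direct comparison of the sorted groups gave 8 members higher in XEN-like than in ectoderm-like cells, against 6.99% of all genes tested. The log2 differences were 3.61 for Lrpap1, 3.49 for P4ha2, 2.93 for P4ha1, 2.75 for Serpinh1, 2.62 for Plod2, 2.57 for Erp29, 1.97 for P4hb and 1.87 for Plod3, with adjusted p from 0.000675 to 0.00967 by edgeR. Plod1 differed by 0.91 (SE 0.51, adjusted p = 0.288) and was not called. The call of Plod3 was lost on leaving out the first XEN-like library (1.69, adjusted p = 0.0631) or of the first ectoderm-like one (1.45, adjusted p = 0.114).

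The other genes of the secretory path were read from lists of known partners. Of 15 general ER folding genes, all tested, 14 were higher in XEN-like cells than in mESCs and none was lower, with a median log2 difference of 1.62. The members of this list with the largest differences were Dnajc3, a co-chaperone (3.62), Manf, an ER stress protein (2.30), Pdia6, a disulfide isomerase (2.27), and Hspa5, the main ER chaperone (2.17). Among the collagen modification and folding partners, 13 of 17 genes were tested, 8 were higher and 1 was lower, with a median of 1.40. They included Leprel4 (3.39) and Lepre1 (1.95), both of the prolyl 3-hydroxylase family, Creb3l2, a transcription factor of secretory cells (3.05), and Fkbp11, a prolyl isomerase (2.28). Of 12 tested collagen export genes, 8 were higher and none was lower, with a median of 1.34, led by the retrieval receptor Kdelr3 (3.38), the coat protein Sec24d (2.49), Kdelr2 (2.00) and Sec23a (1.76). These counts stand beside 12.3% of all genes higher and 22.8% called in either direction, and the medians beside -0.06 over all genes tested. Every listed difference is a log2 difference by edgeR. In ectoderm-like cells against mESCs, 1 of the 15 ER folding genes, none of the 13 modification partners and none of the 12 export genes were higher, and 1 partner was lower. Of all genes, 9.85% were higher in that comparison, so counts of 0 or 1 lie near the background.

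Of 11 genes of collagen processing and crosslinking outside the cell, only 4 were expressed enough to be tested in XEN-like cells against mESCs. None of the 4 was higher, where 12.3% of all genes were, and 2 were lower, the procollagen C-proteinase enhancers Pcolce (-3.54) and Pcolce2 (-3.31). Among basement membrane collagens, 3 of 8 were tested, and Col4a1 (6.66) and Col4a2 (5.98) were higher while Col18a1 (-2.18) was lower. Of 12 fibrillar and related collagens, 2 were tested and neither was called. Of 6 tested receptors of the LDL receptor family, to which the Lrpap1 product binds, Lrp2, the endocytic receptor megalin, was higher (5.95) and Sorl1 was lower (-2.69). Among 10 tested hypoxia-regulated genes, a group to which P4ha1, P4ha2 and Plod2 are also counted, Ndrg1 (3.12), Slc2a1 (1.59) and Egln1 (1.56) were higher and Pdk1 (-1.41) was lower. None of the 10 was called between XEN-like and ectoderm-like cells, where 12.7% of all genes tested were. Their median log2 difference in that comparison was 1.10, against -0.06 for all genes.

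In the whole culture all 9 members reached their highest level at 96 h, as Col4a1 and Lama1 did. Against the 2 mESC libraries together, 20.9% of 6970 genes with at least 50 UMIs were at least 2-fold higher at 96 h, and so were the 8 members among them. Plod1 was 5.42-fold higher (2.74 to 11.3) from 30 UMIs against 13, under that minimum. P4ha2 was at 2.19 and 6.96 CPM at 0 h, and at 6.36, 5.73, 7.97, 13.9, 38.2, 50.4, 118, 194 and 362 CPM from 6 h to 96 h. Its rise was under way by 48 h, when the ratio to mESCs was 8.34 (95% interval 5.16 to 14.1), and it reached 79 (51.3 to 128) at 96 h. Serpinh1 passed through 15.6, 12.3, 39.4, 49, 79.7, 129, 249, 381 and 601 CPM over the same times, a ratio of 3.73 (2.91 to 4.80) at 48 h and of 28.1 (22.9 to 34.9) at 96 h. At 24 h Serpinh1 was above both mESC libraries, while P4ha2 was just above the higher of them.

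The other catalytic subunit, P4ha1, was at 7.82, 9.69, 13.9, 16.9, 27.6, 43.2, 86.1, 149 and 277 CPM. It was below both mESC libraries at 6 h and above both from 48 h on. P4hb, the abundant β subunit, was at 128, 104, 150, 152, 209, 262, 354, 483 and 662 CPM, a ratio of 4.91 (4.46 to 5.41) at 96 h. Plod2 was at 9.29, 6.61, 14.9, 17.5, 21.5, 26.4, 96.4, 160 and 350 CPM, and 14.8 CPM on average in mESCs. It was below mESCs at 12 h, at a ratio of 0.445 (0.236 to 0.787), and most of its rise fell between 60 h and 96 h. Plod3 went from 13.1 CPM on average at 0 h to 42 CPM at 72 h and 78.4 CPM at 96 h, and Erp29 from 53.9 CPM to 219 and 347 CPM.

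Lrpap1 first fell and then rose. It was at 131 and 120 CPM in mESCs and at 93.9, 84.1, 73.7, 81.1, 120, 308, 620, 946 and 1577 CPM from 6 h to 96 h, so that the lowest level was at 24 h, below both mESC libraries. Its ratio to mESCs was 0.959 (0.831 to 1.11) at 48 h and 12.6 (11.5 to 13.8) at 96 h. Plod1 stayed between 1.75 and 5.87 CPM up to 36 h and between 11.8 and 15.4 CPM from 48 h on, with counting intervals that overlap among the later times. At 48 h, 13.8% of 7093 genes were at least 2-fold higher than in mESCs among those with at least 50 UMIs, and 3 members were in this share, P4ha2, Serpinh1 and P4ha1. Plod1, 4.16-fold higher from 29 UMIs against 13, lay under that minimum. The XEN marker sum was 517 CPM at 48 h and 12297 CPM at 96 h in these libraries, and its part in the members' course was not tested.

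**Figure D2:**
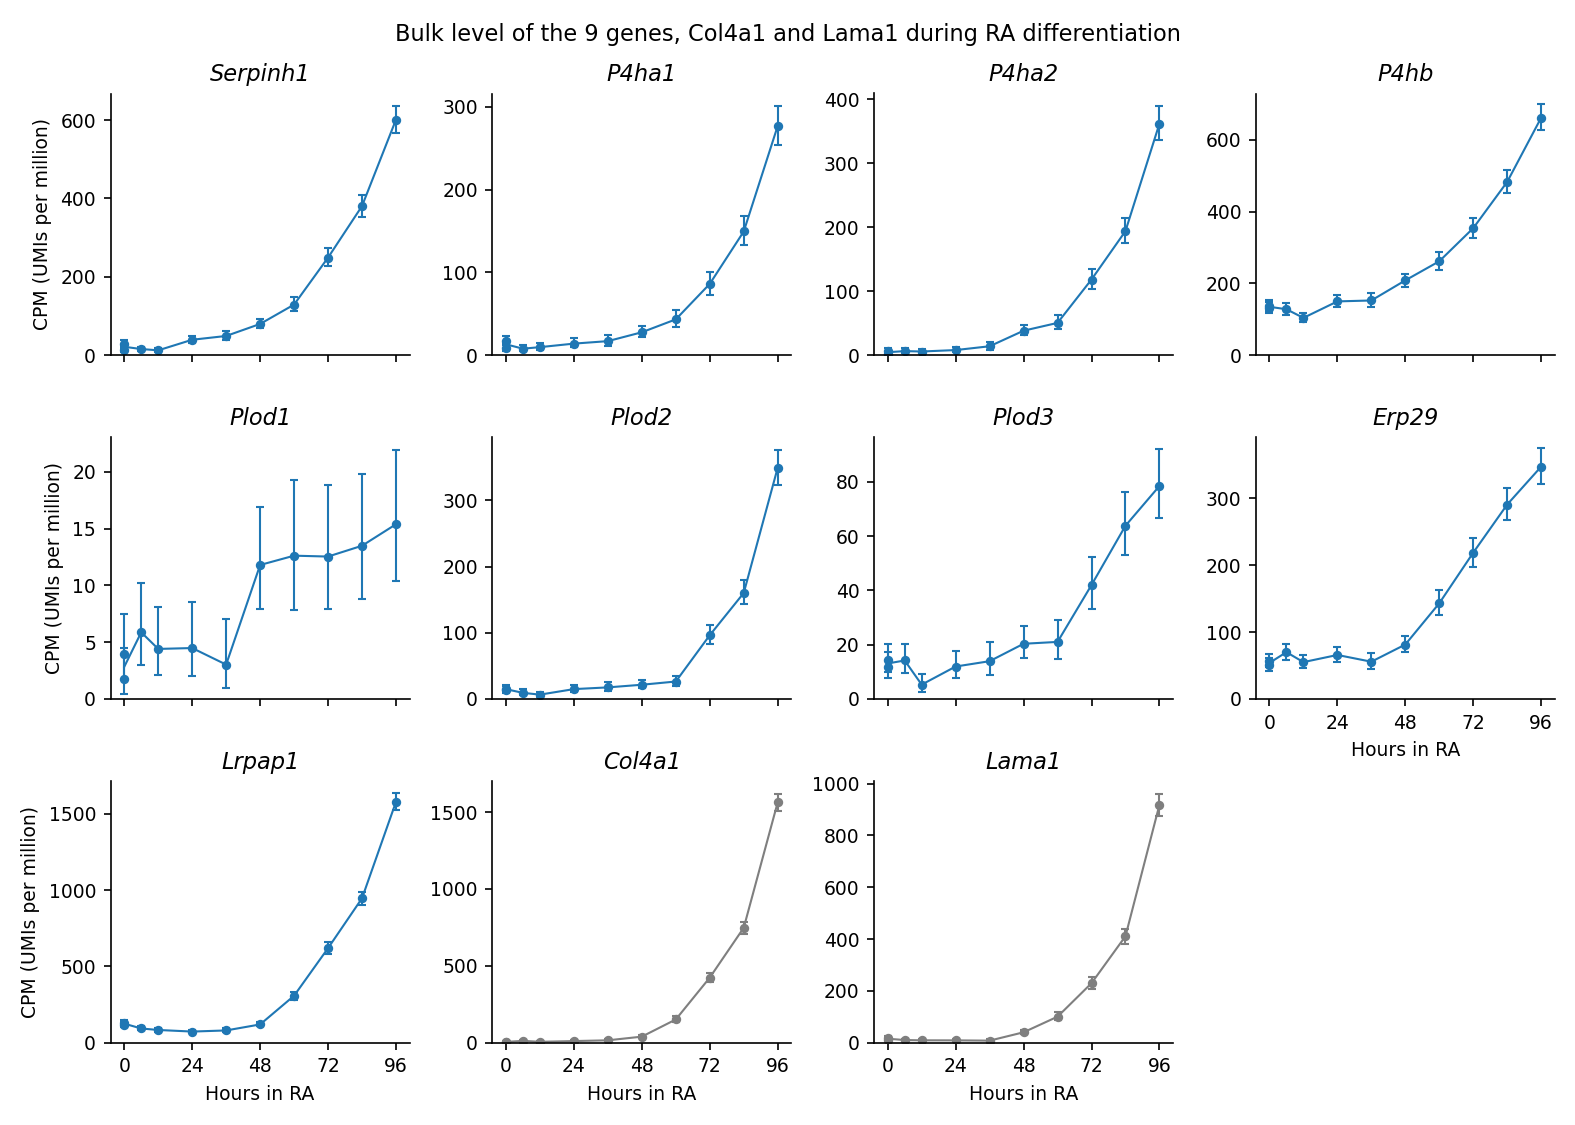
Level in CPM, on a linear axis from 0, against hours in RA in the whole culture, 1 panel per gene, with 95% counting intervals, both mESC libraries at 0 h and a line through the values (their mean at 0 h). All members are highest at 96 h, Plod2 is at 26.4 CPM at 60 h and 350 CPM at 96 h, and Plod1 stays between 11.8 and 15.4 CPM from 48 h on.

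The time at which each gene passed the midpoint between its 0 h level and its highest level was read by linear interpolation of the CPM. Col4a1 passed it at 84.5 h (83.9 to 85.1 h, from the counting intervals) and Lama1 at 85.3 h (84.6 to 86 h). Of the members, 8 passed it before both, in the order Plod1 at 44.3 h, Erp29 at 69.1 h, Plod3 at 74.1 h, P4hb at 76.1 h, Serpinh1 at 77.7 h, Lrpap1 at 80.5 h, P4ha2 at 82.3 h and P4ha1 at 83.2 h. Plod2 passed it at 85.4 h (84.2 to 86.6 h), within the interval of Lama1. The intervals of P4ha2 (79.3 to 84.6 h) and P4ha1 (79.9 to 85.2 h) reach that of Col4a1, the interval of Plod1 (4.73 to 86.3 h) covers most of the course, and those of Erp29, Plod3, P4hb, Serpinh1 and Lrpap1 end below it.

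The order depended on the scale. On log2(CPM + 1), where a change of a given fold counts the same at any level, the midpoint of Col4a1 was at 56.5 h and that of Lama1 at 63 h. Only Plod1, at 43 h, and P4ha2, at 54.1 h, passed before both, so that the count fell from 8 to 2. Serpinh1 at 57.1 h and Erp29 at 59.1 h came between the references, and P4hb, P4ha1, Lrpap1, Plod3 and Plod2 came at 65.3 to 69.5 h. By 96 h Col4a1 had risen 265-fold (182 to 403) and Lama1 57.6-fold (45.6 to 73.9).

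**Figure D3:**
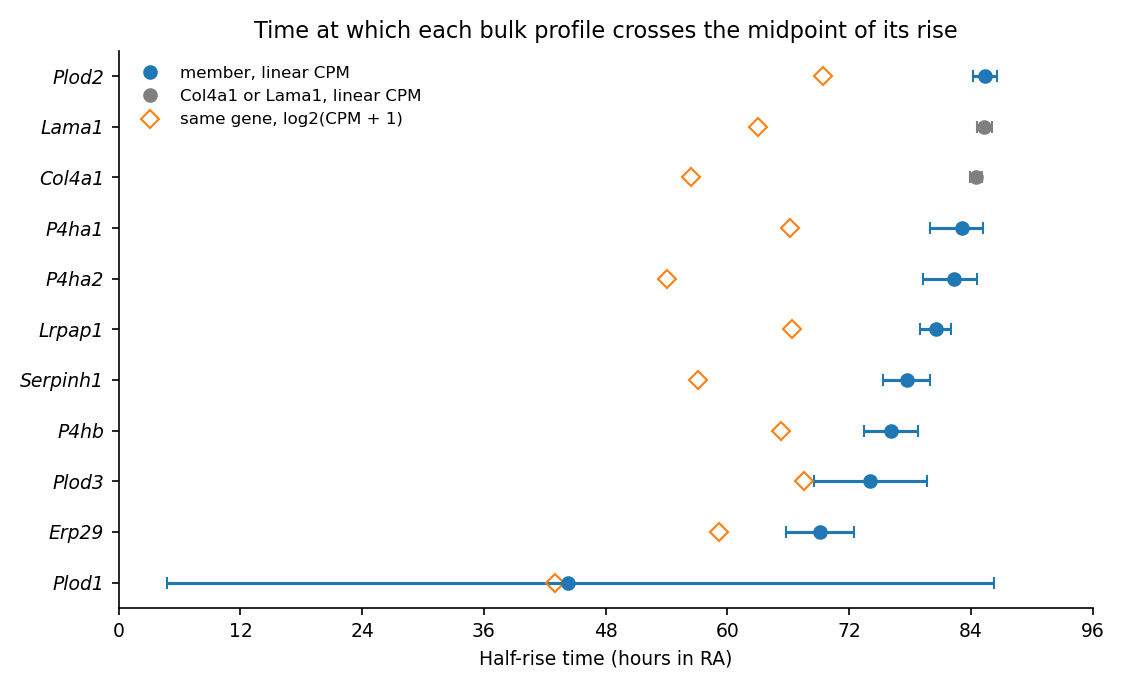
Hours of RA at which each member, Col4a1 and Lama1 passed the midpoint of their rise in the whole culture, on linear CPM with counting intervals and on log2(CPM + 1). On linear CPM 8 members come before both references, and on the log scale Plod1 and P4ha2 do.

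Sorting at 48 h removed PDGFRA+ cells, and the 4 PDGFRA- gates had XEN marker sums of 209 to 268 CPM, at the level of mESCs (197 and 281 CPM) and below the 517 CPM of the whole culture. In these gates P4ha2 was at 24.1, 20.7, 51.7 and 44.2 CPM from Q1 to Q4. The direction of the CD24 numbering is not given in the sources used here, and the sum of 11 ectoderm markers, Cd24a among them, was 885, 1035, 1422 and 1560 CPM in the same order. Every gate was above both mESC libraries, with ratios of 5.25, 4.52, 11.3 and 9.65. Serpinh1 was at 42.1, 46.4, 70.5 and 70.1 CPM, with ratios of 1.97, 2.17, 3.30 and 3.28, and again all gates were above both mESC libraries. With the 4 gates together, P4ha2 (7.48-fold, 4.76 to 12.4) and Serpinh1 (2.65-fold, 2.11 to 3.36) were at least 2-fold above mESCs, as were 12.2% of 7858 genes.

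In the same gates Col4a1 was not above mESCs by more than counting error in any gate, and Lama1 did not stand above them. Col4a1 was at 8.69, 9.28, 11.3 and 5.68 CPM, with ratios to mESCs of 1.48, 1.58, 1.91 and 0.965. The values of all gates but Q4 were above both mESC libraries, at 7.44 and 4.35 CPM. They rested on 12 or 13 UMIs each. The interval of Q3, the highest gate (5.83 to 19.7 CPM), overlapped that of the first mESC library (4.33 to 11.9 CPM). Lama1 was at 11.4, 5.00, 8.46 and 8.84 CPM, below both mESC values of 12.2 and 19.6 CPM in each gate. Lrpap1 was at 61.5, 57.1, 55.5 and 34.7 CPM, below both mESC libraries in each gate. Between the outer gates, Q4 over Q1 was 1.84 (1.21 to 2.83) for P4ha2, 1.66 (1.21 to 2.30) for Serpinh1 and 0.564 (0.397 to 0.797) for Lrpap1. P4hb was at 161, 142, 181 and 232 CPM, and Plod2 at 21.4, 27.8, 23.5 and 20.2 CPM. Of these, P4hb was highest in Q4 and Plod2 had no order beyond its counting error. Over the 4 gates together the ratios to mESCs were 1.56 (1.15 to 2.12) for Plod2, 1.54 (1.12 to 2.15) for P4ha1, 1.34 (1.21 to 1.48) for P4hb, 1.23 (1.05 to 1.45) for Erp29, 1.84 (0.929 to 3.87) for Plod1, 0.675 (0.453 to 1.002) for Plod3 and 0.411 (0.356 to 0.475) for Lrpap1. These intervals leave out the spread between libraries. The second mESC library was at 1.99 times the first (1.14 to 3.59) for P4ha1, 1.12 times for Plod2 and 0.970 times for P4hb. Ratios this near 1 are therefore not shown to be changes.

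At 72 h, 8 members were at least 2-fold higher in the PDGFRA+ gate than in the 3 PDGFRA- gates together, as were 8.31% of 6101 genes. The ratios were 8.94 (7.10 to 11.3) for Plod2, 8.79 (6.77 to 11.5) for P4ha1, 7.97 (6.68 to 9.55) for P4ha2, 7.82 (6.90 to 8.88) for Lrpap1, 6.67 (5.82 to 7.67) for Serpinh1, 4.28 (3.69 to 4.97) for Erp29, 4.01 (2.71 to 6.00) for Plod3 and 3.54 (3.20 to 3.91) for P4hb. For Plod1 the ratio was 1.26 (0.581 to 2.59), from 12 UMIs against 26. Serpinh1 was at 95.6, 77.6 and 63.7 CPM in T1, T2 and T3 and at 527 CPM in the PDGFRA+ gate. Within the PDGFRA- gates, Lrpap1 was at 146 CPM in T1 and at 61.8 and 59.1 CPM in T2 and T3, while the XEN marker sum was 797, 473 and 356 CPM in the same order.

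The PDGFRA+ gate at 72 h was next set against XEN-like cells of 96 h. Relative to the 2 sorted XEN-like libraries of 96 h as 1 pool, P4ha2 was at 0.875 (0.787 to 0.972), P4hb at 0.803 (0.744 to 0.866), Plod2 at 0.703 (0.618 to 0.798), P4ha1 at 0.688 (0.594 to 0.795) and Serpinh1 at 0.640 (0.589 to 0.696). Erp29 was at 0.597, Lrpap1 at 0.379, Lama1 at 0.432 (0.392 to 0.476) and Col4a1 at 0.114 (0.0955 to 0.136). Col4a1 varied strongly between libraries of sorted cells, however, at 98.5 CPM in the PDGFRA+ gate, 424 CPM in the whole culture at 72 h, and 1208 and 236 CPM in the 2 XEN-like libraries, and Lama1 too differed between those 2. The first XEN-like library exceeded the second by 5.12-fold (4.50 to 5.84) for Col4a1 and by 2.71-fold for Lama1. For the members this ratio ran from 0.869 for Plod2, 0.994 for P4ha2 and 1.02 for P4ha1 to 1.45 for Serpinh1 and 2.16 for Lrpap1. The order therefore depended on the library at 96 h. Against the first XEN-like library alone the gate was at 0.877 for P4ha2, 0.699 for P4hb, 0.684 for P4ha1, 0.335 for Lama1 and 0.0815 for Col4a1. Against the second alone it was at 0.872 for P4ha2, 1.10 for P4hb, 0.695 for P4ha1, 0.905 for Lama1 and 0.417 for Col4a1, so that Lama1 then came above both catalytic subunits. The PDGFRA+ gate also held 7169 CPM of the pluripotency markers, and the part of that in these ratios was not tested.

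**Figure D4:**
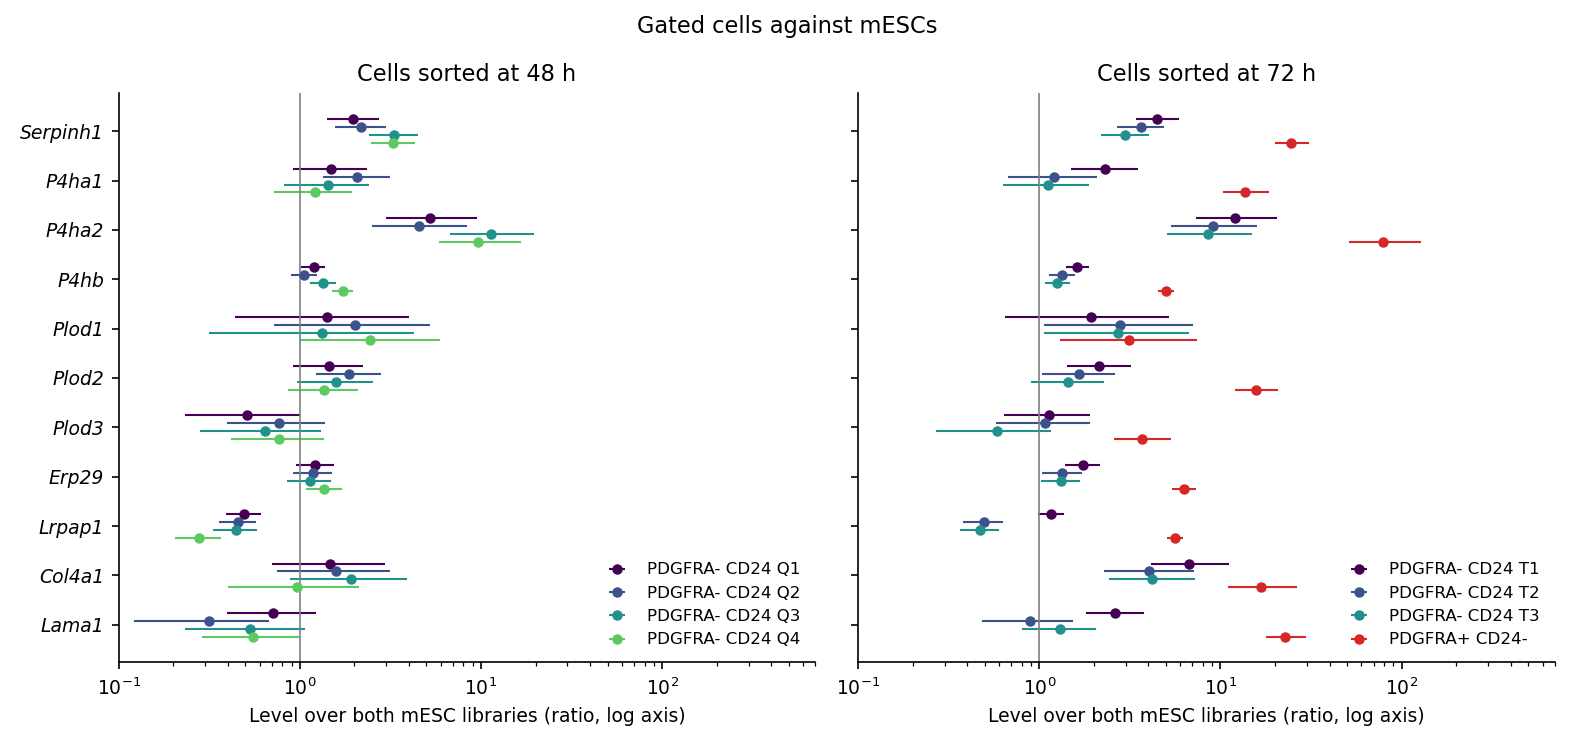
Level of members, Col4a1 and Lama1 relative to the 2 mESC libraries, on a log axis, in the sorted gates of 48 h and 72 h, 1 library per gate, with 95% counting intervals. P4ha2 and Serpinh1 lie above the mESC level in all 4 gates of 48 h, and all members are highest in the PDGFRA+ gate of 72 h, Plod1 by less than its counting error.

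After longer culture the 2 lineages had come nearer for some members and not for others. In the XEN-like culture, P4ha2 was at 442 CPM, 1.07 times (0.972 to 1.18) the 2 sorted XEN-like libraries, and P4hb was at 1223 CPM, 1.46 times (1.38 to 1.55). Serpinh1 (0.523), P4ha1 (0.405), Erp29 (0.404) and Lrpap1 (0.330) were lower than in the sorted cells, and Plod2 (0.804) and Plod3 (0.691) less so. No member was at least 2-fold higher in this culture, against 19.7% of 6433 genes, nor against either sorted library alone, where P4hb came nearest (1.99 against the second).

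In the ectoderm-like culture Plod1 was at 35.9 CPM, 4.45 times (2.81 to 7.23) the sorted ectoderm-like libraries and the highest level of Plod1 in any bulk library. Plod3 was 2.96 times, P4ha1 2.79 times, P4hb 2.50 times and Serpinh1 2.05 times higher, so that 5 of 9 members were at least 2-fold higher, against 14.8% of 6887 genes. Plod2 (0.572, 0.420 to 0.769) and Lrpap1 (0.584, 0.483 to 0.704) were lower. These values depended on the sorted library: 6 members were at least 2-fold higher against the first alone and 3 (Plod1, P4hb and Plod3) against the second alone. P4ha1 was 5.37 times higher against the first and 1.79 times against the second, and Plod2 (1.38) and Lrpap1 (1.05) were not lower against the first. This library stood apart by its mesenchyme markers, 6 genes with a sum of 1981 CPM against at most 26.7 CPM elsewhere. It also held 1452 CPM of the fibrillar collagen Col3a1, 506 CPM of Col1a1, 816 CPM of Pcolce and 93.7 CPM of Fkbp10, a prolyl isomerase of fibrillar collagen. Its XEN marker sum was 2235 CPM, above both sorted ectoderm-like libraries, and its 4 muscle markers summed to 809 CPM, the most of any library. Of the XEN markers, Col4a1 was at 165 CPM, while Lama1 was at 4.28 CPM, below both mESC libraries, and Sox17 was the lowest at 0.535 CPM. The sum, which includes matrix genes, therefore does not show that XEN-like cells were present in this culture. The part of these markers' cells in the members' levels was not tested.

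The XEN-like culture therefore exceeded the ectoderm-like culture for Plod2 (8.29-fold, 6.30 to 11.1), Lrpap1 (7.59-fold), P4ha2 (6.45-fold, 5.33 to 7.86) and P4hb (2.31-fold), 4 members at least 2-fold higher against 18.7% of 5966 genes. Serpinh1 (1.74-fold) and Erp29 (1.56-fold) were higher by less. P4ha1 (1.07, 0.859 to 1.33) and Plod3 (0.866, 0.644 to 1.16) had intervals that include equal levels, and Plod1 was lower (0.481, 0.291 to 0.771). The 2 catalytic α subunits, which were both higher in sorted XEN-like cells, thus parted in culture.

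Over all 25 bulk libraries, which share cultures and treatment, the correlation of log2(CPM + 1) between members ran from 0.537 (Plod1 with Lrpap1) to 0.969 (Serpinh1 with P4ha2), as a description. Among 4437 genes with a mean of at least 20 CPM, the gene nearest to Serpinh1 was P4ha2 (Pearson r = 0.969), followed by Lamb1, the laminin β1 chain (0.963), and P4ha1 (0.959). P4ha2 was in turn nearest to Serpinh1, Lamb1 (0.967) and Elovl1 (0.958). P4ha1 was nearest to Pdgfra (0.966), Ckap4 (0.964) and Serpinh1, and Plod2 to Lamb1 (0.957), Glipr1 (0.956) and Cst3 (0.956). Lrpap1 was nearest to the laminin chain genes Lamc1 (0.968) and Lama1 (0.958) and to Srgn (0.946), P4hb to Ssr4 (0.971), Ckap4 (0.957) and Arfip1 (0.95), and Erp29 to Tmed10 (0.961), Lifr (0.961) and D17Wsu104e (0.957). Plod3 was nearest to Calu, an ER calcium binding protein (0.970), Kdelr3 (0.942) and Ckap4 (0.941). Plod1 had the loosest neighbours, Pja2 (0.903), Itgb1 (0.898) and Maged2 (0.895).

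In single cells, SCRB-seq gave 2448 wells with more than 2000 UMIs, from 137 cells at 96 h to 335 at 6 h, with no profile repeated within or between plates. Summed over cells, 8 members were at least 2-fold higher at 96 h than at 0 h, against 23.6% of 9248 genes. Serpinh1 went from 0.313 to 7.91 UMIs per 10000 UMIs (25.3-fold, 19.3 to 33.6), P4ha2 from 0.0478 to 1.24 (25.9-fold, 13.1 to 58.5, or 87.5-fold as a mean over cells of each cell's share) and Plod2 from 0.515 to 6.59 (12.8-fold, 10.3 to 16.1). P4ha1 rose 12.5-fold, Lrpap1 5.55-fold, P4hb 4.59-fold, Plod3 3.64-fold and Erp29 3.46-fold. Plod1, with 20 UMIs at 0 h and 13 at 96 h, gave 1.69-fold (0.770 to 3.56), which is not a detectable change at this depth. Col4a1 rose 523-fold (275 to 1145) and Lama1 19.3-fold (16.7 to 22.3).

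Several members dipped before they rose in the SCRB-seq cells. P4ha1 went from 40 UMIs in 282 cells at 0 h to 6 UMIs in 335 cells at 6 h and 0 UMIs in 285 cells at 12 h, and was at 0.319 UMIs per 10000 at 48 h. Plod3 went from 0.605 at 0 h to 0.151 UMIs per 10000 at 12 h, and Plod2 from 0.515 to 0.202 at 24 h. Lrpap1 went from 0.939 to 0.392 UMIs per 10000 at 24 h, and Erp29 from 0.886 to 0.617 at 6 h. The dip was not particular to members. Lama1 went from 1.13 to 0.0979 UMIs per 10000 at 24 h and was at 0.355 of its 0 h level at 48 h. Col4a1, at 0.0478 at 0 h and 0.0979 at 24 h, did not dip. Serpinh1 also dipped, from 0.313 to 0.146 UMIs per 10000 at 12 h, and P4hb did not, at 1.93, 2.48, 2.31 and 2.15 from 0 h to 24 h. P4ha2 was too rare before 24 h to show a dip, with 9, 4 and 2 UMIs at 0, 6 and 12 h. In the bulk course at 12 h the ratios to mESCs were 0.404 (0.198 to 0.758) for Plod3, 0.445 for Plod2, 0.577 (0.365 to 0.886) for Serpinh1, 0.671 (0.566 to 0.791) for Lrpap1, 0.740 (0.432 to 1.22) for P4ha1 and 0.771 (0.661 to 0.897) for P4hb. P4ha1, which had no UMI in single cells at 12 h, was thus not detectably lower in bulk, and P4hb was lower in bulk but not in single cells. Erp29, lower in single cells at 6 h, was at 69.9 CPM in bulk at that time, above both mESC libraries.

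By 48 h P4ha2 (6.41-fold) and Serpinh1 (3.93-fold, 2.92 to 5.35) were above 0 h, as were by less Plod2 (1.81-fold, 1.39 to 2.36) and P4hb (1.52-fold, 1.32 to 1.75). Erp29 (0.719, 0.556 to 0.925) and Lrpap1 (0.612) were below 0 h, and P4ha1 (1.5, 0.973 to 2.33), Plod3 (0.888) and Plod1 (0.824) had intervals that include 1. P4ha2 and Serpinh1 were at least 2-fold higher, as were 19.1% of 9818 genes. At this time 253 of 277 cells held no Col4a1 UMI, and these cells held 165 of the 197 Serpinh1 UMIs, 42 of the 49 P4ha2 UMIs and 389 of the 469 P4hb UMIs. Cells without a Col4a1 UMI were most of the sample, so they would hold most UMIs of a gene unrelated to Col4a1 as well. These counts therefore do not place a member before or apart from Col4a1. A cell without a UMI may also still have expressed the gene, since the median cell held 4005 UMIs. By 72 h, 110 of 235 cells lacked a Col4a1 UMI and held 57 of 288 Serpinh1 UMIs, 13 of 82 P4ha2 UMIs and 12 of 178 Plod2 UMIs.

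With each cell thinned to 2000 UMIs, a Serpinh1 UMI was seen in 6.74% of cells at 0 h (95% exact binomial interval 4.10 to 10.3), 20.2% at 48 h and 65% at 96 h. P4hb went from 29.8% to 66.4%, Plod2 from 7.80% to 54.7% and Lrpap1 from 17.4% to 47.4%. P4ha2 was seen in 0 of 282 thinned cells at 0 h, although 6 of these cells (2.13%) held a UMI before thinning, and in 16.1% at 96 h (33.6% before thinning). The unthinned share for Serpinh1 was 14.9% at 0 h. All these shares describe cells with a UMI in 1 sample per time point.

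Among the 137 cells at 96 h, members were richer where matrix genes were. Cells were ranked by the share of their UMIs in Col4a1, Col4a2, Lama1, Lamb1, Lamc1 and Sparc, none of which is a member, and the 45 highest were set against the 45 lowest. P4ha2 had 51 UMIs against 2, a ratio of 19 (4.99 to 161). Plod2 followed at 9.66 (6.20 to 15.9), P4ha1 at 6.12 (3.43 to 11.9), Lrpap1 at 5.92 (3.96 to 9.19), Serpinh1 at 4.72 (3.54 to 6.39), Erp29 at 3.72 (2.36 to 6.10), P4hb at 3.11 (2.42 to 4.03) and Plod3 at 2.79 (1.68 to 4.82). For Plod1, 7 UMIs against 1 gave 5.20 (0.669 to 235), which does not separate the classes. At least 2-fold higher in the matrix-rich cells were 17.2% of 4018 genes. With 68 cells per class in place of 45, every ratio was smaller. P4ha2 was at 6.89 (3.34 to 16.5), Plod2 at 4.11, Lrpap1 at 3.76, Serpinh1 at 3.33, P4ha1 at 3.32 and P4hb at 2.52. Plod3 (1.94, 1.35 to 2.85) and Erp29 (1.84, 1.36 to 2.52) then fell below 2-fold, and Plod1 was at 1.53 (0.428 to 6.81).

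Every matrix-rich cell held a Serpinh1 UMI, as did 55.6% of the matrix-poor cells. The classes are ranges of a score and not cell types, and 33 of the 137 cells lay within 10 UMIs per 10000 of a boundary. Their median depth was 4456 and 3879 UMIs, and their median level of ectoderm markers was 9.0 and 26.7 UMIs per 10000. At 48 h, 60 h and 72 h most cells lay that close to a boundary (266 of 277, 240 of 273 and 196 of 235), and the classes of those times are not described.

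SMART-seq2, whose RPKM values (reads per kilobase of transcript, scaled to sequencing depth) are per length, allowed levels to be ordered between members. At 0 h the means over 82 cells were 289 RPKM for P4hb, 116 RPKM for Erp29 and 91.0 RPKM for Lrpap1, then 23.5 RPKM for Plod2, 21.6 RPKM for Plod3, 21.3 RPKM for P4ha1 and 18.1 RPKM for Serpinh1, and 10.1 RPKM for Plod1 and 2.67 RPKM for P4ha2. The SD over cells was 151 RPKM for P4hb and 62.9 RPKM for Erp29. It was 25.6 RPKM for Serpinh1, so that Plod2, Plod3, P4ha1 and Serpinh1 were within the spread of each other. Cells of 1 sample are not replicates, and read depth cannot be taken from these values.

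Of the catalytic α subunits, P4ha1 was the more abundant in mESCs per length and P4ha2 at 48 h. P4ha2 went from 2.67 RPKM at 0 h to 3.23 at 12 h, 8.19 at 24 h and 63.8 RPKM at 48 h, while P4ha1 went from 21.3 to 13.8, 23.4 and 25.2 RPKM. Cells above 1 RPKM of P4ha2 numbered 6 of 82, 12 of 86, 17 of 89 and 62 of 82 at the same times. The median P4ha2 level at 48 h was 32 RPKM, with quartiles of 10.1 and 82.1 RPKM. The rise was therefore spread over most cells of the 48 h sample, when 34 of 82 cells were above 1 RPKM of Col4a1 and the mean of Col4a1 was 23.9 RPKM.

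The remaining members moved less by 48 h. Serpinh1 went from 18.1 to 36.1 RPKM and from 46 to 72 of 82 cells above 1 RPKM, and Plod1 from 10.1 to 18.8 RPKM. P4hb went from 289 to 443 RPKM, Plod2 from 23.5 to 33.6, Erp29 from 116 to 144, Lrpap1 from 91.0 to 101, and P4ha1 from 21.3 to 25.2 RPKM. Plod3 had no clear direction: its mean went from 21.6 to 24.0 RPKM but its median from 16.6 to 11.4 RPKM, and the share of cells above 1 RPKM from 68.3% to 53.7%. On the values as deposited, before cells were brought to 1 total, its mean at 48 h was 0.974 times that at 0 h. For Lrpap1 the mean hides a spread that widened, since the median went from 85.2 to 58.3 RPKM while the SD over cells went from 47.8 to 148 RPKM. A mean at least 2-fold higher at 48 h than at 0 h was found in 22.3% of 14911 genes and in 1 member, P4ha2, with Serpinh1 just below that fold.

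Within the 48 h cells, Lrpap1 had the largest ratio between cells chosen by the RNA of the sorting markers. In the 10 cells highest in Pdgfra its mean was 245 RPKM, and in the 29 cells highest in Cd24a 50.2 RPKM, a ratio of 4.87, where 11.3% of 14550 genes were at least 2-fold higher. In 4 of the 10 cells Lrpap1 was above every Cd24a-high cell. The ratios were 1.78 for P4ha2, 1.73 for Erp29, 1.64 for P4hb, 1.5 for Plod2, 1.12 for P4ha1, 1.05 for Serpinh1, 0.663 for Plod3 and 0.321 for Plod1. P4ha2 was at a mean of 98.8 RPKM (SD 111 over cells) in the first class and 55.6 RPKM (SD 59.6) in the second, both far above the 2.67 RPKM of 0 h. The classes shared 3 cells, and their edges were 11.1 against 1.04 RPKM of Pdgfra and 107 against 101.6 RPKM of Cd24a, so that the Cd24a class has no gap at its edge.

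**Figure D5:**
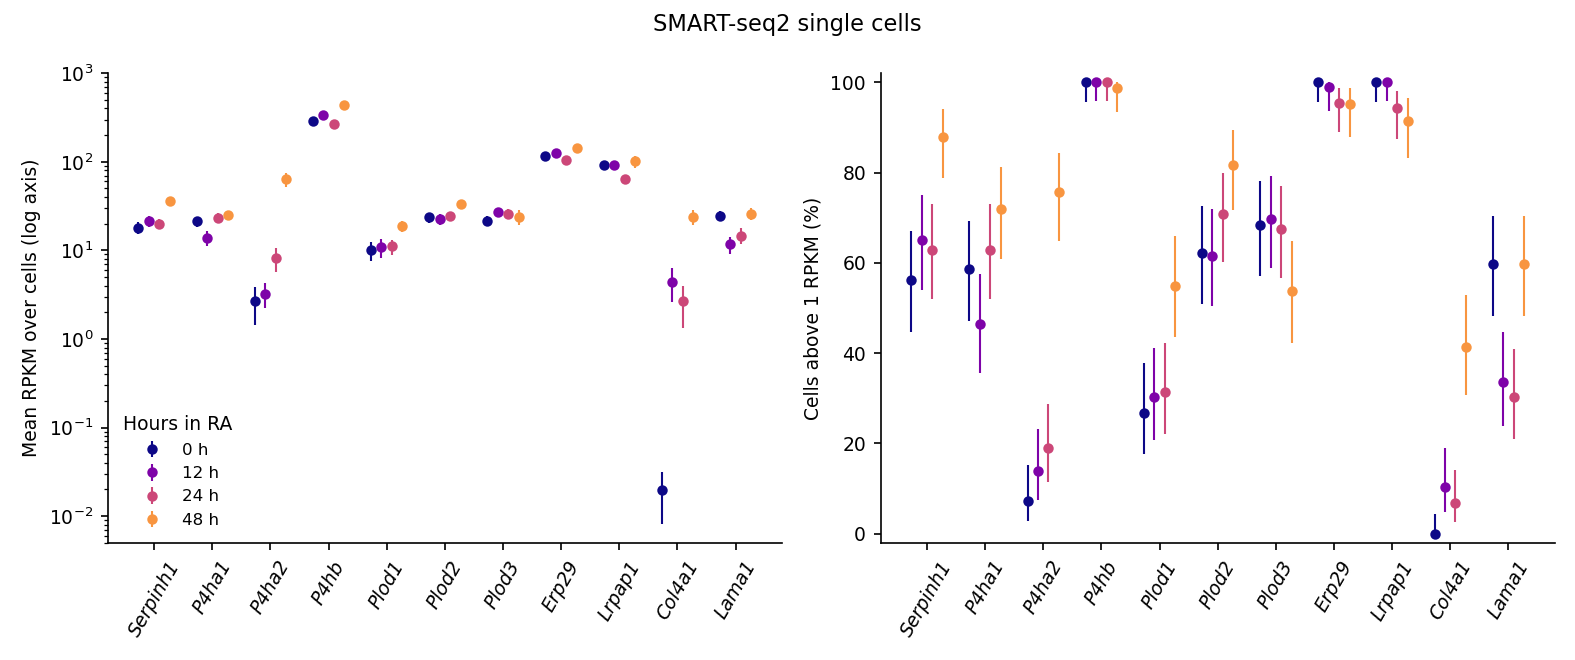
SMART-seq2 cells at 0, 12, 24 and 48 h in RA, with the mean RPKM over cells and its SE on a log axis (left) and the percent of cells above 1 RPKM with its exact binomial 95% interval (right), for each member, Col4a1 and Lama1. P4ha2 moves from 7.32% to 75.6% of cells above 1 RPKM between 0 h and 48 h, and P4hb has the highest mean at each time.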

How the data were processed

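Bulk RNA-seq and SCRB-seq values are counts: the authors aligned 3′-end reads to mouse RefSeq mRNA sequences (mm10) with BWA 0.7.4, took the number of unique UMIs per gene in each library or well, and deposited the counts without normalization. SMART-seq2 values are RPKM, made by the authors with TopHat and Cuffnorm and deposited as such, so that depth cannot be read from them. Of the bulk genes, 2 that hold text in place of a count were left out, and 0.127% to 0.14% of SMART-seq2 values, text with a decimal comma, were read as 0.

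Bulk counts were divided by the library total (CPM). The 3 groups with 2 libraries each entered 1 quasi-likelihood fit of 6 libraries (R 4.3.3, edgeR 4.0.16, TMM scaling, filterByExpr, Benjamini-Hochberg adjustment over 8947 genes, calls at an adjusted p below 0.05), with DESeq2 1.42.0 as an alternative, and the fit was tested on simulated data. TMM factors were 0.863 to 1.14 and the biological coefficient of variation was 0.247. A two-sided exact permutation of 2 against 2 libraries gives no p below 0.333. Levels in the 19 conditions with a single bulk library carry exact Poisson intervals, and ratios carry exact intervals given the summed count. For SCRB-seq, cells are wells above 2000 UMIs, without doublet removal, and SMART-seq2 RPKM was brought to 1 total, the median of cells at 0 h. The 10 Pdgfra-high and 29 Cd24a-high cells follow the numbers in the study's methods.

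All 9 members were named, with Col4a1 and Lama1. From each list of partner genes, the up to 4 with the largest log2 difference among those called in XEN-like cells against mESCs were named, and for each member the 3 genes with the highest correlation. Fkbp10, Col3a1, Col1a1 and Pcolce in the ectoderm-like culture were named after their values were seen. The members and lists were chosen with earlier results of these data known. Other steps used matplotlib 3.10.9, scipy 1.17.1, numpy 2.4.6 and pandas 2.3.3 in Python 3.11.15, and BLAST 2.17.0 to compare the last 400 bases of each member's transcripts with all others. Gene positions are from GENCODE M21.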

Additional observations from a re-analysis of the deposited data

How the results depend on the processing

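Of 252 log2 differences of members under alternative settings, 236 kept their direction and side of the threshold, 11 lost the call, 2 gained it and 3 reversed, all 3 of them uncalled. The reversals, between ectoderm-like cells and mESCs, were Lrpap1 with library totals alone (0.19, adjusted p = 0.800) and on leaving out ectoderm-like replicate 1 (0.51, adjusted p = 0.464), and Plod3 on leaving out ectoderm-like replicate 2 (-0.17, adjusted p = 0.853), by edgeR, with ranges over the 4 libraries left out in turn of -1.07 to 0.51 for Lrpap1 and -0.17 to 0.92 for Plod3, and the cause was not tested. The number of members called higher in ectoderm-like cells ran from 1 to 4 when 1 library was left out, with 1 without the second ectoderm-like library. The number of members past their midpoint before Col4a1 and Lama1 fell from 8 to 2 on log2(CPM + 1). Library totals as the only scaling moved the median of all genes from 0.05 to 0.36 on the log2 scale in ectoderm-like cells against mESCs and from -0.06 to 0.15 in XEN-like cells against mESCs, and the share of calls that were higher from 51.5% to 70.04% and from 54.02% to 65.6%. The sorted libraries share numbers 1 and 2, their deviations correlated at 0.351 over 8059 genes with 2 pairs only, and a replicate block left 8 members called between XEN-like and ectoderm-like cells. Of 66 ratios to the sorted libraries taken against 1 of them alone, chosen after seeing the data, 38 moved and 4 reversed: P4hb in the PDGFRA+ gate (0.699 against the first XEN-like library, 1.10 against the second), Lama1 in the XEN-like culture (0.554 and 1.5), and Plod2 (1.38 and 0.341) and Lrpap1 (1.05 and 0.386) in the ectoderm-like culture, against the first and the second sorted library in that order; the cause was not tested. Of 33 midpoint times 10 moved, of 18 SCRB-seq ratios 2 (P4ha2 to 87.5 and Lrpap1 to 6.84 as means over cells), of 17 ratios between matrix-rich and matrix-poor cells 5, and of 36 SMART-seq2 log2 ratios 13, and Plod1 had no value in the matrix classes above 4000 UMIs. Depth limits Plod1 most, with 13 UMIs in the 2 mESC libraries and 12 in the PDGFRA+ gate.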
